A study of Mus musculus with 18 samples.

Results

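Retinal ganglion cells are the neurons whose axons leave the eye through the optic nerve head. The transcripts described here are 10 genes that are used to recognise these cells or that build their axons. They were chosen by name from 55416 gene identifiers, and all 10 were among the 15118 genes with enough reads to be tested. Nefl, Nefm and Nefh encode the light, medium and heavy subunits of neurofilaments. Rbpms, Thy1, Sncg, Pou4f1 and Slc17a6 are used as ganglion cell markers. Tubb3 and Stmn2 encode a neuronal beta-tubulin and a protein that binds tubulin.

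Mouse optic nerve heads were cut out of tissue sections by laser capture microdissection, and 18 RNA libraries were made from them. At 22 months of age the labels give 3 B6.EDA+/+ libraries and 5 of C57BL/6J, and at 12 months there were 5 of each. As background, EDA+/+ mice carry a fibronectin gene altered so that the extra domain A (EDA) exon is always included in the transcript, in every cell that makes fibronectin, and C57BL/6J mice serve as controls. No treatment is given in the labels, nor is it said that every library is from its own animal, so p-values measure the spread between libraries, which may be technical.

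As background, neurofilaments are heteropolymers that fill large axons and set their calibre, and their proteins are made largely in the cell body and carried down the axon by slow transport. The cell bodies and nuclei of retinal ganglion cells lie in the retina, and the optic nerve head holds their axons beside astrocytes, vessels, microglia and, behind the lamina region, oligodendrocytes. In injured retina, transcripts of ganglion cells are known to decline. In tissue RNA such as this, fewer cells of a type and less RNA per cell cannot be told apart.

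The libraries held 13097498 to 18488733 expected counts. The share of fibronectin transcripts with the EDA exon did not follow the labels: it ran from 0% to 58.5% with a median of 4.11% in 8 EDA-labelled libraries, and from 0% to 100% with a median of 4.45% in 10 control-labelled libraries. These shares are estimates from the authors' isoform values. Each library had 68 to 1485 fibronectin reads over all isoforms, and the shares rest only on isoforms that span the exon. The reads on the exon itself were not counted. The libraries are therefore called EDA-labelled and control-labelled. Astrocyte markers were abundant (Gfap averaged 5909 TPM, a level corrected for transcript length and library total). In markers of other cells 5 libraries stood apart. Replicate 4 of the EDA-labelled group at 12 months had an astrocyte marker sum of 20151 TPM, against 3660 to 9606 TPM in the other 17. Replicate 2 of the control-labelled group at 22 months had a photoreceptor marker sum of 4725 TPM, against 7.85 to 179 TPM elsewhere, and replicate 1 of the EDA-labelled group at 22 months had a skeletal muscle sum of 270 TPM, against 2.74 TPM or less elsewhere. Oligodendrocyte markers summed to 23173 TPM in replicate 3 of the EDA-labelled group at 12 months and 23728 TPM in replicate 3 of the control-labelled group at 22 months, against 249 to 6550 TPM in the other 16. The same pair had the highest microglia sums, 1998 TPM and 2283 TPM, against 561 to 1302 TPM elsewhere.

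The 10 genes spanned a wide range of levels. Nefh averaged 34.4 ± 15.9 TPM, Rbpms 32.96 ± 17.3 TPM, Thy1 27.7 ± 10.4 TPM and Nefl 18.6 ± 9.63 TPM (SD, n = 18 libraries). Nefm averaged 6.499 ± 3.42 TPM and Sncg 3.39 ± 3.37 TPM. The other 4 were near the limit of detection, with 1.38 ± 1.18 TPM for Stmn2, 1.04 ± 0.901 TPM for Pou4f1, 0.720 ± 0.891 TPM for Tubb3 and 0.658 ± 0.830 TPM for Slc17a6. The order of neighbours was not fixed in every case: Nefh exceeded Rbpms in 11 of 18 libraries, Rbpms exceeded Thy1 in 9, Stmn2 exceeded Pou4f1 in 9 and Tubb3 exceeded Slc17a6 in 8. Thy1 exceeded Nefl in 15 of 18 libraries, Nefl exceeded Nefm in 17 and Nefm exceeded Sncg in 15.

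**Figure D1:**
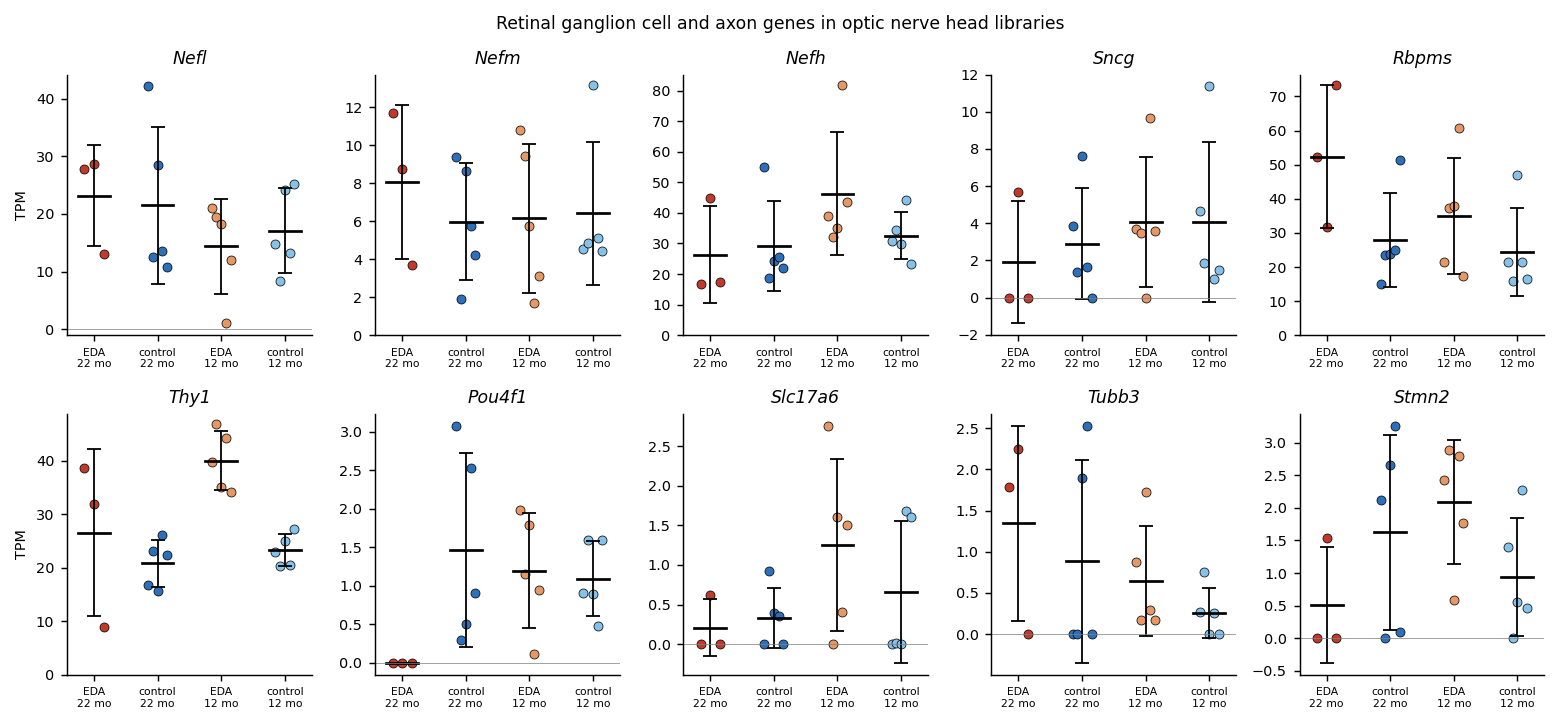
Level of each of the 10 genes in TPM on a linear axis, with 1 point per library, the group mean as a line and the SD as a bar, for EDA-labelled and control-labelled libraries at 22 months (n = 3 and 5) and at 12 months (n = 5 each). The points of the groups overlap in most panels, the exceptions being Pou4f1, at 0 in all 3 EDA-labelled libraries at 22 months, and Thy1, which lay between 34.2 and 46.8 TPM in EDA-labelled and between 20.3 and 27.2 TPM in control-labelled libraries at 12 months.

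The ganglion cell label was checked against the genes that define these cells. Transcription factors of the cell body differed in how often they were detected. Isl1 had no read in any of the 18 libraries, Isl2 was at 0 in 17, and Pou4f2 was at 0 in 7 with a median of 2 reads and at most 129. Pou4f3, a relative of Pou4f1, was at 0 in 5 libraries and reached 213 reads (9.34 TPM), and Foxp2 was at 0 in 4 and reached 234 reads (8.15 TPM). Opn4, the photopigment of intrinsically photosensitive ganglion cells, was at 0 in 15 libraries, and Eomes and Tbr1, transcription factors of ganglion cell subtypes, were at 0 in 16 each. Other genes used as ganglion cell markers were high: Nrn1, which encodes a membrane-anchored protein of growing neurites, averaged 253 ± 111 TPM, Cartpt, a neuropeptide precursor, 127 ± 83.1 TPM, and Rbpms2, a relative of Rbpms, 81.8 ± 37.5 TPM (SD, n = 18). Nrn1 was at 0.630 TPM in replicate 4 of the EDA-labelled group at 12 months, the lowest of the 18. Rbpms and Thy1 are also expressed outside ganglion cells, Rbpms in vascular and other smooth muscle and Thy1 in fibroblasts, so neither marks ganglion cells alone in this tissue.

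The neurofilament genes are described first. Nefl, the subunit on which the filament assembles, had 27.9, 28.6 and 13.0 TPM in the EDA-labelled libraries at 22 months, against 42.1, 12.5, 28.5, 13.5 and 10.7 TPM in the control-labelled ones. Its levels at 12 months were 21.1, 19.5, 18.3, 1.02 and 12.1 TPM in EDA-labelled libraries, against 14.7, 8.33, 24.1, 13.2 and 25.3 TPM in control-labelled ones. At both ages the groups overlapped, and the lowest of all 18 values belonged to replicate 4 of the EDA-labelled group at 12 months, with 35 reads where the other 17 libraries had 278 to 1466. The fitted log2 fold change between the labels was 0.01 ± 0.63 at 22 months and -0.46 ± 0.55 at 12 months (SE, edgeR's quasi-likelihood test, adjusted p = 1.00 in both). Without the library of 35 reads the value at 12 months was -0.15.

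Nefm, the medium subunit, had 11.7, 8.74 and 3.72 TPM in EDA-labelled libraries at 22 months, against 9.39, 1.92, 8.64, 5.73 and 4.23 TPM in control-labelled ones. At 12 months the gene had 10.8, 9.44, 5.76, 1.69 and 3.14 TPM in EDA-labelled libraries, against 4.54, 4.86, 13.2, 5.10 and 4.42 TPM in control-labelled ones. The values of each group lay inside or across the range of the other. The log2 fold change was 0.34 ± 0.60 at 22 months and -0.28 ± 0.53 at 12 months (SE, edgeR, adjusted p = 1.00 in both). Nefl and Nefm are neighbours on chromosome 14, with 0 annotated protein-coding genes between them, and their annotated ends overlap on opposite strands. The library kit keeps no strand, so reads in the overlap cannot be assigned with certainty.

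Nefh, the heavy subunit, whose long tail is phosphorylated in mature axons, had 16.9, 44.7 and 17.4 TPM in EDA-labelled libraries at 22 months, against 54.9, 18.8, 24.2, 25.7 and 22.1 TPM in control-labelled ones. At 12 months it had 39.1, 32.2, 35.2, 81.7 and 43.5 TPM in EDA-labelled libraries, against 30.7, 34.3, 29.9, 44.3 and 23.4 TPM in control-labelled ones. At 22 months replicate 2 of the EDA-labelled group and replicate 1 of the control-labelled group stood above the rest of their groups. At 12 months replicate 4 of the EDA-labelled group did. The log2 fold change between the labels was -0.23 ± 0.43 at 22 months and 0.30 ± 0.37 at 12 months (SE, edgeR, adjusted p = 1.00 in both).

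The make-up of the neurofilament triplet varied between libraries. Nefh took a median of 55.8% of the summed TPM of the 3 subunits, and Nefh exceeded Nefl in 15 of 18 libraries. Its share was 45.1% ± 13.3 in EDA-labelled (SD, n = 3) and 52.9% ± 8.07 in control-labelled libraries (SD, n = 5) at 22 months. At 12 months it was 67.6% ± 18.3 in the EDA-labelled group and 58.6% ± 13.7 in the control-labelled one (SD, n = 5 each). The ratio of Nefh to Nefl had a median of 1.75 and reached 80.1 in replicate 4 of the EDA-labelled group at 12 months, where Nefh made up 96.8% of the triplet. In the other 17 libraries the ratio ran from 0.605 to 4.12 and the share of Nefh from 29.9% to 74.1%. The same library was the only one in which Nefm exceeded Nefl. It was also the library with the astrocyte sum of 20151 TPM named above, and the part of that composition in the ratio was not tested.

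**Figure D2:**
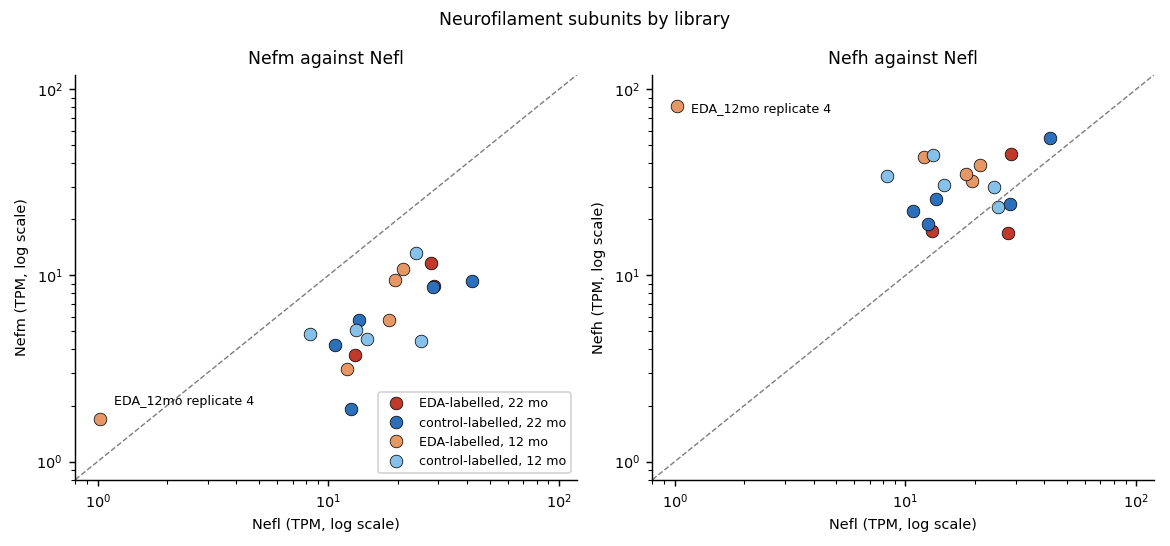
TPM of Nefm (left) and Nefh (right) against Nefl on log axes, 1 point per library, coloured by label and age, with a dashed line where both genes are equal. Nefm lies below the line in 17 of 18 libraries and Nefh above it in 15 of 18, and replicate 4 of the EDA-labelled group at 12 months lies apart with 1.02 TPM of Nefl and 81.7 TPM of Nefh.

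Nefl and Nefm varied together between libraries of a group. Over the 18 libraries, with group means removed from log2 CPM (reads relative to the TMM-scaled library total), Pearson's r was 0.749 (permutation p = 0.00018, adjusted p = 0.0081 over 45 pairs of the 10 genes). Spearman's rho was 0.666 (permutation p = 0.00345, adjusted p = 0.0776). Without the 2 libraries farthest from the median of Nefl, r was 0.610, and without replicate 4 of the EDA-labelled group at 12 months it was 0.669. The 2 genes share libraries and depth, and reads in their overlap could be divided between them. Of the 45 pairs this one passed by Pearson's r and 0 passed by Spearman's rho, and the median r over all pairs was -0.01.

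Among the ganglion cell markers, Rbpms, an RNA-binding protein present in nearly all ganglion cells of the mouse retina, was highest on average in the EDA-labelled group at 22 months. It had 52.1, 31.6 and 73.3 TPM there, against 15.03, 23.6, 23.9, 25.1 and 51.4 TPM in control-labelled libraries. Its levels at 12 months were 21.6, 37.2, 38.03, 60.7 and 17.5 TPM in EDA-labelled libraries, against 21.5, 15.8, 46.9, 21.5 and 16.5 TPM in control-labelled ones. The groups overlapped at both ages. The log2 fold change was 0.93 ± 0.57 at 22 months, with an unadjusted p of 0.119 and an adjusted p of 1.00, and 0.17 ± 0.50 at 12 months (SE, edgeR, adjusted p = 1.00). Within EDA-labelled libraries the log2 difference of 22 over 12 months was 1.12 ± 0.57 (SE, edgeR, adjusted p = 0.961). Without replicate 3 of the EDA-labelled group at 22 months, which had the 73.3 TPM, these log2 differences were 0.16 between the labels at 22 months and 0.36 between the ages. With a term for the read share of ENSMUSG00000119584, the label difference at 22 months was 0.15. That single gene took 4.81% to 17.3% of the reads in EDA-labelled and 10.7% to 32.8% in control-labelled libraries at 22 months, and its part in the difference was not otherwise tested.

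The gene-level value of Rbpms was not mainly that of its coding transcripts on the TPM scale. Rbpms-214, annotated as a processed transcript without a coding sequence, carried 47.4% of the gene's TPM and 22.8% of its reads. The coding Rbpms-202 carried 39.2% of the TPM and 45.9% of the reads. Rbpms-214 averaged 23.5 ± 7.16 TPM in EDA-labelled (SD, n = 3) and 12.8 ± 8.46 TPM in control-labelled libraries (SD, n = 5) at 22 months. Rbpms-202 averaged 21.1 ± 12.9 TPM in EDA-labelled and 9.02 ± 1.26 TPM in control-labelled libraries of that age. These isoform values are estimates that divide shared reads, and 2 other annotated genes lie within the span of Rbpms, 1 of them antisense to it.

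Thy1, a cell surface glycoprotein anchored by a lipid, had 38.7, 31.96 and 8.89 TPM in EDA-labelled libraries at 22 months, against 16.7, 23.1, 15.6, 26.02 and 22.4 TPM in control-labelled ones. At 12 months the gene had 39.8, 46.8, 34.97, 44.2 and 34.2 TPM in EDA-labelled libraries, against 23.0, 20.3, 25.04, 20.5 and 27.2 TPM in control-labelled ones. At 12 months all 5 EDA-labelled libraries lay above all 5 control-labelled ones on the TPM scale, as 1 of the 10 genes, where 1.76% of all tested genes had groups without overlap in TPM. On the CPM scale, used for the test, they overlapped in 1 library, with 26.01 ± 2.08 CPM in EDA-labelled and 18.8 ± 2.33 CPM in control-labelled libraries (SD, n = 5 each). The log2 fold change was 0.47 ± 0.32 at 12 months, with an unadjusted p of 0.159 and an adjusted p of 1.00, and 0.25 ± 0.36 at 22 months (SE, edgeR, adjusted p = 1.00).

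TPM divides by the estimated length of the transcripts present, and CPM does not. CPM also uses the TMM-scaled library total, and the authors' TPM values do not. The part of either in the difference between the scales was not tested. Values of a single isoform in TPM, as given next, still lack the TMM scaling, and Thy1-201 was not compared in CPM. Thy1-201 carried 88.5% of the reads and 60.7% of the TPM, and the coding Thy1-205 and Thy1-204 carried 20.2% and 17.6% of the TPM on 5.74% and 4.94% of the reads. At 12 months Thy1-201 alone averaged 21.7 ± 3.46 TPM in EDA-labelled and 14.1 ± 2.23 TPM in control-labelled libraries (SD, n = 5 each), and every EDA-labelled value, from 18.7 to 26.1 TPM, lay above every control-labelled one, from 11.6 to 17.6 TPM. Of 28818 isoforms with a mean of 10 reads or more, 1.55% had groups without overlap there. At 22 months Thy1-201 spanned 5.80 to 26.2 TPM in EDA-labelled and 10.4 to 17.7 TPM in control-labelled libraries, which overlap. The difference of the label effect between the ages was -0.22 ± 0.49 for Thy1 on the log2 scale (SE, edgeR, adjusted p = 1.00). Fibroblasts also express Thy1, and their markers summed to 172 to 340 TPM in EDA-labelled and 197 to 395 TPM in control-labelled libraries at 12 months, and their part in the values of Thy1 was not tested.

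Pou4f1, a POU-domain transcription factor of most ganglion cells also known as Brn3a, was not detected in any EDA-labelled library at 22 months. It had 0, 0 and 0 reads there, against 32, 2, 14, 29 and 8 reads in control-labelled libraries. At 12 months it had 17, 17, 20, 5 and 11 reads in EDA-labelled libraries, against 7, 38, 14, 4 and 10 reads in control-labelled ones. Every other library had 2 reads or more, so the counts of the EDA-labelled group at 22 months were the lowest. With 3 reads per library taken as the limit that a count of 0 allows, which averages 0.217 CPM, the group was at least 5.43-fold lower than control-labelled libraries of the same age (1.18 ± 0.942 CPM, SD, n = 5) and at least 3.97-fold lower than EDA-labelled libraries at 12 months (0.863 ± 0.352 CPM, SD, n = 5). The bounds hold against group means and allow for counting error alone, as amplified reads are not separate molecules. The limit of 3 reads exceeds the 2 reads of replicate 2 of the control-labelled group at 22 months. A level below that of every other library is therefore not shown.

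The difference of Pou4f1 between the labels at 22 months did not pass the adjusted threshold in edgeR (unadjusted p = 0.0011, adjusted p = 1.00), and did so in DESeq2 (adjusted p = 0.0259). Over 18 alternative settings the adjusted p ran from 0.0259 to 1.00, and DESeq2 was the one setting that called it. Against EDA-labelled libraries at 12 months the unadjusted p was 0.00158 and the adjusted p 0.961 in edgeR, and the adjusted p was 0.0573 in DESeq2. The difference of the label effect between the ages had an unadjusted p of 0.00286 and an adjusted p of 1.00 (edgeR), and Pou4f1 was the 1 of the 10 genes with an unadjusted p under 0.05 there, against 4.02% of all tested genes (608 genes). Pou4f1 was the 1 gene of the 10 whose groups did not overlap in TPM between the labels at 22 months, where 2.37% of all tested genes showed this.

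Zeros were not particular to Pou4f1 in those libraries. In replicate 3 of the EDA-labelled group at 22 months Sncg, Slc17a6, Tubb3 and Stmn2 were also at 0, the most of any library, and in replicate 1 Sncg, Slc17a6 and Stmn2 were. Replicate 2 had reads for all but Pou4f1. Replicate 3 had the fewest genes with 10 or more reads, 9703, where the highest library had 13048. In 6 of the 18 libraries none of the 10 genes was at 0. The part of this difference in detection in the zeros of Pou4f1 was not tested.

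**Figure D3:**
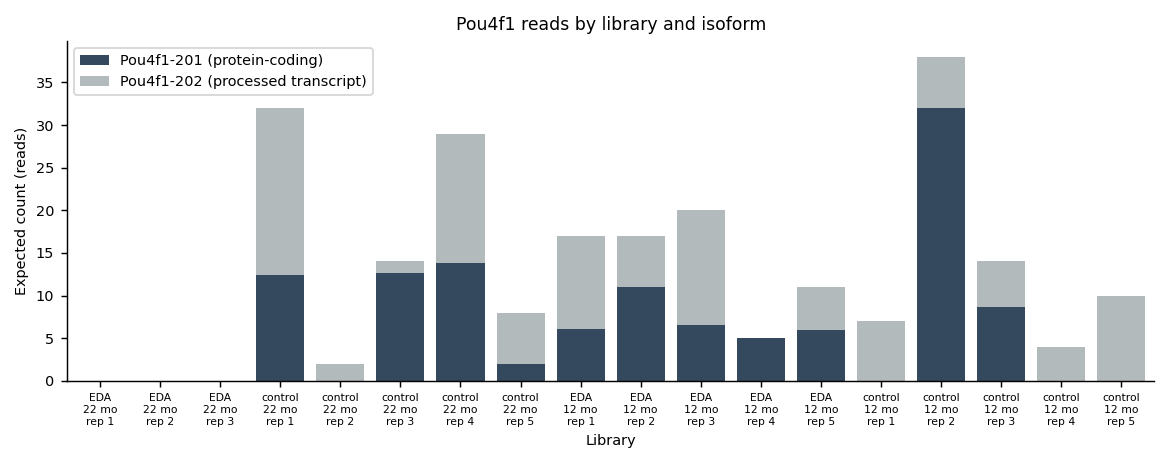
Expected counts (reads) of Pou4f1 in each of the 18 libraries, as bars stacked by annotated isoform, the protein-coding Pou4f1-201 and the processed transcript Pou4f1-202. All 3 EDA-labelled libraries at 22 months are at 0, and the other 15 hold between 2 and 38 reads.

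Summed over the libraries, the reads of Pou4f1 were divided almost evenly between a coding and a noncoding transcript. Single libraries could be uneven. At 12 months replicate 2 of the control-labelled group had 32 coding and 6 noncoding reads, and replicate 5 had 0 and 10. Replicate 4 of the EDA-labelled group at that age had 5 and 0. Pou4f1-201, which encodes the protein, took 50.9% of the reads and 13.8% of the TPM and had reads in 11 libraries. The processed transcript Pou4f1-202 took 49.1% of the reads and 86.2% of the TPM. The gene's TPM is thus mostly an estimate for the noncoding transcript. On Pou4f1-201 alone, the mean was 0 TPM in EDA-labelled and 0.182 ± 0.149 TPM in control-labelled libraries at 22 months (n = 3 and 5), and 0.154 ± 0.0559 TPM in EDA-labelled and 0.180 ± 0.312 TPM in control-labelled libraries at 12 months (SD, n = 5 each).

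Sncg, gamma-synuclein, ranged from 0 to 5.69 TPM in EDA-labelled and from 0 to 7.63 TPM in control-labelled libraries at 22 months. At 12 months it ranged from 0 to 9.67 TPM in EDA-labelled and from 1.00 to 11.4 TPM in control-labelled libraries. Slc17a6, the vesicular glutamate transporter VGLUT2 of ganglion cells, ranged from 0 to 0.620 TPM in EDA-labelled and from 0 to 0.920 TPM in control-labelled libraries at 22 months. At 12 months the gene ranged from 0 to 2.76 TPM in EDA-labelled and from 0 to 1.68 TPM in control-labelled libraries. All of these ranges overlap. The log2 fold changes at 22 months, -0.77 ± 1.74 for Sncg and -1.58 ± 2.23 for Slc17a6, had errors larger than themselves (SE, edgeR, adjusted p = 1.00 in both), so a difference of that size could not be told from the spread between libraries.

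The pair of microtubule genes was equally scarce. Tubb3, the beta-tubulin class used as a neuronal marker, had 1.78, 2.25 and 0 TPM in EDA-labelled libraries at 22 months, against 0, 0, 1.90, 2.53 and 0 TPM in control-labelled ones. At 12 months it reached 1.73 TPM in EDA-labelled and 0.750 TPM in control-labelled libraries. Stmn2, also called SCG10, had 0, 1.54 and 0 TPM in EDA-labelled libraries at 22 months, against 2.12, 0, 2.66, 3.26 and 0.10 TPM in control-labelled ones. At 12 months the gene spanned 0.590 to 2.89 TPM in EDA-labelled and 0 to 2.28 TPM in control-labelled libraries. The groups overlap in each case. Tubb3 overlaps the predicted gene Gm20388 on the same strand in the annotation used for names, so its reads could be divided between them.

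Over all 10 genes, none passed the threshold of an adjusted p under 0.05 in edgeR in any comparison, where 0.00% of the 15118 tested genes did. Between the labels, 1 of the 10 had an unadjusted p under 0.05 at 22 months, against 3.96% of all tested genes (599 genes), and 0 of 10 at 12 months, against 4.56% (689 genes). Of all genes DESeq2 called 35 at 22 months and 22 at 12 months, and voom with quality weights called 1 and 2. The median log2 fold change of the 10 was -0.11 at 22 months and 0.13 at 12 months, beside -0.07 and -0.01 over all tested genes. The 10 were split between the directions, with 5 above and 5 below 0 at 22 months and 6 above and 4 below 0 at 12 months. Of all tested genes, 46.0% lay above 0 at 22 months and 49.5% at 12 months. Pou4f1 set at its bound still lay below the middle values of the 10 at 22 months, so that median could not change. Without the 5 libraries that stood apart, 4 of the 10 lay above 0 at either age, with medians of -0.07 at 22 months and -0.03 at 12 months. Over all tested genes the medians were then -0.08 and -0.03.

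Between the ages the picture was similar. Within EDA-labelled libraries, 22 over 12 months, 1 of the 10 genes had an unadjusted p under 0.05, against 4.98% of all tested genes (753 genes), and within control-labelled libraries 0 of 10 did, against 3.51% (530 genes). DESeq2 called 43 and 23 of all genes in these comparisons, and voom with quality weights called 0 in each. In TPM the ages did not overlap for 1 of the 10 genes, Pou4f1, within EDA-labelled libraries, where 3.88% of all tested genes showed this, and for 0 of 10 within control-labelled ones, where 0.410% did. Nefl had 53.2 CPM on average at 22 months and 29.9 CPM at 12 months in EDA-labelled libraries, the latter including the library of 35 reads. Its log2 difference was 0.83 ± 0.62 (SE, edgeR, adjusted p = 1.00), and 0.53 to 1.00 with each library left out in turn. On the TPM scale its ages overlapped. On the CPM scale they did not, with 43.8 to 59.96 CPM at 22 months and 2.21 to 43.4 CPM at 12 months. The share of all genes without overlap was counted in TPM alone. The median log2 difference of the 10 genes was -0.46 within EDA-labelled and 0.03 within control-labelled libraries, beside -0.06 and 0.02 over all tested genes. Without the 5 libraries that stood apart, the median was -0.19 within EDA-labelled libraries, with 3 of the 10 genes above 0. Within control-labelled ones it was 0.30, with 8 above 0. Over all tested genes the medians were then -0.13 and -0.03. In the fit to all libraries, 46.9% of all tested genes lay above 0 within EDA-labelled and 51.6% within control-labelled libraries. Leaving out the 5 keeps only replicates 2 and 3 of the EDA-labelled group at 22 months. With the pair that was high in oligodendrocyte markers kept and the other 3 left out, the median within EDA-labelled libraries was 0.04, beside -0.13 over all tested genes. The comparisons at 22 months and within EDA-labelled libraries share the same 3 libraries.

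**Figure D4:**
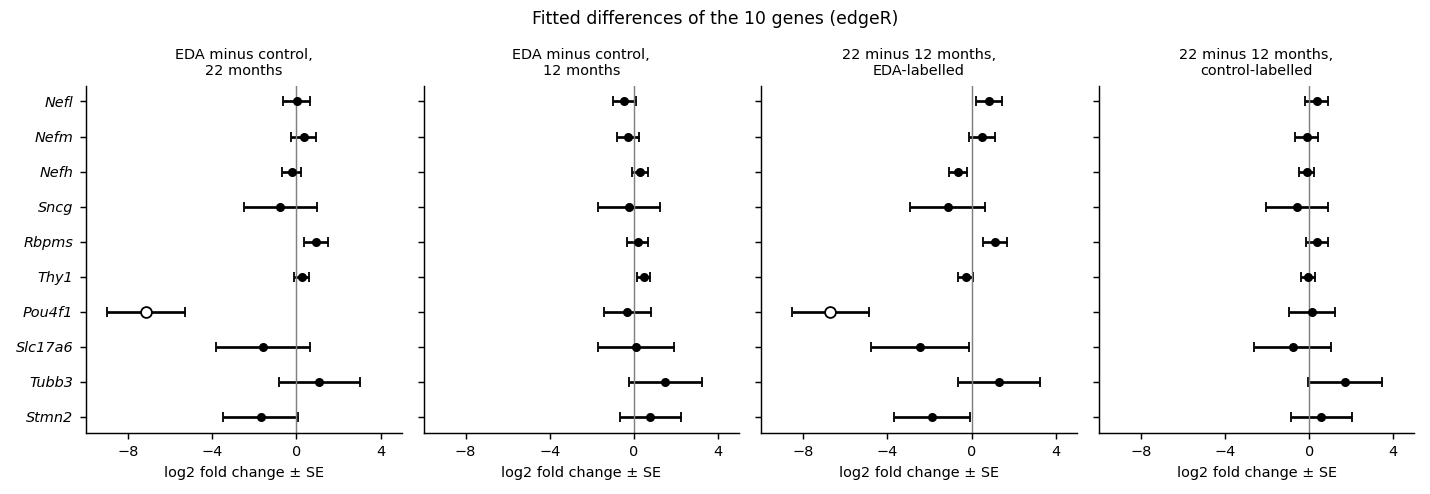
Fitted log2 fold changes (points) with standard errors (bars) of the 10 genes in the 4 comparisons, EDA-labelled minus control-labelled at 22 and 12 months and 22 minus 12 months within each label. Nefl, Nefm, Nefh, Rbpms and Thy1 have shorter bars than the scarce genes, and Pou4f1 is drawn with an open point where the EDA-labelled group at 22 months has no reads, since that fitted value depends on the prior count and is no estimate of size.

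Other neuronal genes put these levels in context. Motors of axonal transport were far above the neurofilaments per length: Kif5a, a kinesin heavy chain of neurons, averaged 3258 ± 1478 TPM, Kif1a, which carries synaptic vesicle precursors, 1333 ± 645 TPM, and the kinesin light chain Klc2 576 ± 279 TPM (SD, n = 18). Of the neuronal cytoskeleton, the beta-tubulin Tubb4a averaged 956 ± 1184 TPM, the microtubule-associated protein Map1b 243 ± 173 TPM and the alpha-tubulin Tuba1a 215 ± 87.3 TPM. Tubb4a is also strong in oligodendrocytes, whose marker sum ranged from 249 to 23728 TPM. Of genes for axonal membrane and nodes, Nrcam averaged 308 ± 89.7 TPM and Cntnap2 83.2 ± 45.3 TPM. Of general neuronal genes, Nsf and Vamp2, which act in vesicle fusion, averaged 95.7 ± 36.5 TPM and 89.2 ± 23.3 TPM.

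**Figure D5:**
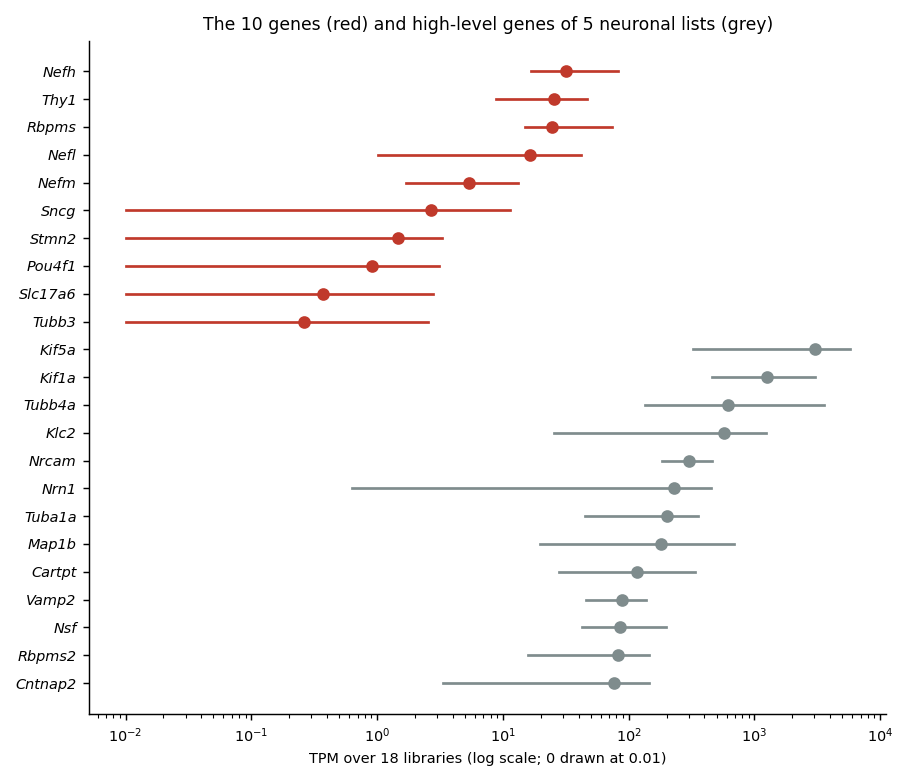
Median (point) and range (line) of TPM over 18 libraries on a log axis, for the 10 genes (red) and for high-level genes of 5 lists of other neuronal genes (grey), with values of 0 drawn at 0.01. Tubb3, Slc17a6, Pou4f1, Stmn2 and Sncg reach 0, and Kif5a and Kif1a lie above every library's value for all 10 genes.

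None of the genes on 6 such lists passed the threshold between the labels or the ages (edgeR). For the counts by direction below, 46.0% of all tested genes lay above 0 at 22 months and 49.5% at 12 months. At 22 months 17 of 22 tested genes of the neuronal cytoskeleton lay below 0 in EDA-labelled libraries, with a median log2 fold change of -0.38 and 0 with an unadjusted p under 0.05. At 12 months 11 of 22 lay below 0, with a median of -0.07. Of 14 tested genes of the axonal membrane and nodes, 10 lay below 0 at 22 months, with a median of -0.49, and 6 at 12 months, with a median of 0.12. Of 21 transport genes 12 lay below 0 at 22 months and 11 at 12 months, with medians of -0.17 and -0.07. Of 19 general neuronal genes 11 lay below 0 at 22 months and 7 at 12 months, with medians of -0.25 and 0.17. Without the 5 libraries that stood apart, the medians at 22 months were -0.14 for the cytoskeleton, 0.00 for membrane and nodes, -0.14 for transport and 0.26 for general neuronal genes, beside -0.08 over all tested genes. At 12 months the median of general neuronal genes was then -0.18, beside -0.03 over all tested genes.

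For other ganglion cell markers, 8 of 15 had enough reads to be tested. Of these 7 lay below 0 at 22 months, with a median log2 fold change of -0.03, and all 8 at 12 months, with a median of -1.46 and 0 with an unadjusted p under 0.05. The 3 of highest mean TPM, Nrn1, Cartpt and Rbpms2, had smaller log2 fold changes at 12 months, -0.99, -0.74 and -0.69. The less abundant genes thus set that median. The summed level of the list at 12 months was 46.6 TPM in replicate 4 of the EDA-labelled group and 290 to 916 TPM in the other 9 libraries. Without the 5 libraries that stood apart, 6 of the 8 lay below 0 at 22 months and all 8 at 12 months, with medians of -0.23 and -0.94. Genes of the neuronal response to injury were also measured: Ecel1, a membrane peptidase induced in injured neurons, averaged 43.3 ± 20.8 TPM, the transcription factor subunit Jun 13.7 ± 5.80 TPM and the axon survival enzyme Nmnat2 5.35 ± 3.84 TPM (SD, n = 18). Of 11 tested injury genes 6 lay below 0 at 22 months and 5 at 12 months, with medians of -0.05 and 0.11. Without the 5 libraries 3 of these 11 lay below 0 at 22 months, with a median of 0.57, and 4 at 12 months, with a median of 0.19.

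Genes whose levels followed those of the 10 most closely were sought among 7216 others, by Pearson's r of log2 CPM with group means removed over the 18 libraries, as a description. For Nefh the closest was Kif1a (r = 0.826), followed by Gnl1 (0.772). For Nefl it was Tnks2 (0.916), followed by Mga (0.906), and for Nefm Cdkn1b (0.829) and Sod2 (0.829). For Thy1 it was Slc25a12 (0.934), followed by Pex6 (0.933), and for Rbpms Flt3 (0.876) and Cdc42se1 (0.876). These points share libraries, depth and tissue composition. The pairs were picked for the highest r among 7216 genes, so r carries that selection. With the 2 libraries farthest from the median of Nefh left out, r with Kif1a was 0.627. Left out in the same way for each gene, r was 0.722 for Nefl with Tnks2 and 0.753 for Nefm with Cdkn1b. It was 0.734 for Thy1 with Slc25a12 and 0.857 for Rbpms with Flt3.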

How the data were processed

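Per the labels' protocols, low-input total RNA was turned into libraries with SMART-Seq v4 and Nextera XT, which keep no strand, then STAR alignment and RSEM quantification followed. The build GRCm39 is named per the submitters' processing notes. The sources used here name neither tool versions nor the annotation. The deposited gene and isoform tables hold the authors' expected counts, which were rounded for testing (3.59% of gene values were not whole), and the authors' TPM values, used for levels. Symbols were matched for 52083 of 55416 identifiers. Isoform names, types and overlaps came from GENCODE M21, of another build, so no coordinates are given.

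Genes passing filterByExpr (15118) were scaled by TMM and fitted in edgeR 4.0.16, R 4.3.3, with robust quasi-likelihood, a mean for each of 4 groups, two-sided tests and Benjamini-Hochberg adjustment over all tested genes (threshold 0.05). Standard errors are the log2 fold change divided by the root of F. Library totals were 13097498 to 18488733. Chi-square over its degrees of freedom was 39.1 or more for every pair of libraries in a group, so no pair differed by counting error alone. It cannot show whether libraries came from the same animal or tissue. Correlations used 100000 permutations. Alternatives were DESeq2 1.42.0, voom in limma 3.58.1, other scaling, filters, covariates and samples. The procedure was tested on simulated data.

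The 10 genes and all lists were chosen with earlier results of these data known. Beyond the 10, the text names the 3 genes of highest mean TPM in each neuronal list (2 of these genes are not reported here) and the genes most alike to each of the 5 more abundant ones (mean of at least 2 log2 CPM); those of the 5 scarce ones, whose counts are sparse, are not given. Markers of ganglion cell bodies were named from a list. Isl2, Pou4f3, Foxp2, Opn4, Eomes and Tbr1 were named after their values were seen.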

Additional observations from a re-analysis of the deposited data

Results flagged for a closer look

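For groups of 5 libraries the highest and lowest value of each of the 10 genes was compared with its neighbours by Dixon's test, 30 tests in all. Chance flags about 1 in 20 where values are independent and normally distributed. TPM values of genes from the same libraries need not be, so the number of flags was not compared with that rate. In 5 cases the highest library lay far from the rest of its group. Nefh had 81.7 TPM in replicate 4 of the EDA-labelled group at 12 months, where the other 4 libraries had 32.2 to 43.5 TPM. Nefh had 54.9 TPM in replicate 1 of the control-labelled group at 22 months, where the others had 18.8 to 25.7 TPM. Rbpms had 51.4 TPM in replicate 5 of the control-labelled group at 22 months, where the others had 15.03 to 25.1 TPM. In replicate 3 of the control-labelled group at 12 months Rbpms had 46.9 TPM, where the others had 15.8 to 21.5 TPM, and Nefm had 13.2 TPM, where the others had 4.42 to 5.10 TPM.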

How the results depend on the processing

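The 40 fitted differences of the 10 genes (4 comparisons) were refitted under other settings, and the cause of the changes below was not tested. Of 396 values under settings that kept each group's libraries, or left out together 3 or all 5 of the libraries that stood apart (settings chosen after seeing the data), 1 was called, Pou4f1 at 22 months in DESeq2 (log2 fold change -6.48), and 31 had the other sign. With the pair high in oligodendrocyte markers kept and the other 3 left out, the log2 fold change at 22 months was -0.11 for Nefl, -0.067 for Nefm, 0.0052 for Nefh and 1.15 for Slc17a6. At 12 months it was -0.0291 for Nefh and -0.088 for Rbpms, within EDA-labelled libraries 0.0147 for Nefh and 0.11 for Sncg, and within control-labelled ones 0.087 for Nefm. Without all 5 it was -0.13 for Nefl, -0.0614 for Nefm, 0.35 for Sncg, -0.0806 for Thy1 and 1.03 for Slc17a6 at 22 months. The values at 12 months were then 0.047 for Nefm, -0.0094 for Nefh, -0.25 for Rbpms and -0.0576 for Slc17a6, within EDA-labelled libraries -0.0655 for Nefm, and within control-labelled ones 0.043 for Nefm, 0.13 for Nefh and 0.0161 for Thy1. With voom and quality weights it was 0.0202 for Nefl, 0.30 for Nefm, -0.029 for Nefh and 0.51 for Pou4f1 at 12 months, and 0.14 for Nefm between the ages in control-labelled libraries. With a term for the read share of ENSMUSG00000119584 it was 0.35 for Slc17a6 at 22 months, and -0.33 for Rbpms and 0.30 for Pou4f1 at 12 months. With the ratio of Xist to Y-linked reads as a covariate it was 0.0234 for Thy1 between the ages in control-labelled libraries. Sex is not in the labels, and this ratio was uneven between groups. All 5 control-labelled libraries at 22 months had 1208 to 2052 Y-linked reads, and replicate 1 of the EDA-labelled group had 0. At 12 months replicates 4 and 5 of the EDA-labelled and 1 and 2 of the control-labelled group had 2393 to 5921 Xist reads and at most 1 Y-linked read.

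DESeq2 called 35, 22, 43, 23 and 37 of all genes (labels at 22 months, labels at 12 months, ages in EDA-labelled, ages in control-labelled, and the difference of label effects), and 1 of the 10 at 22 months. Voom called 1, 2 and 1 in the first, the second and the last of these. With each library left out in turn, 0 to 1 genes were called between the labels at 12 months, and 23 of the 40 differences kept their sign. At 22 months the others ran from -0.16 to 0.51 (Nefl), -0.66 to 0.23 (Nefh) and -6.55 to 0.57 (Slc17a6). At 12 months they ran from -0.54 to 0.16 (Nefm), -0.0315 to 0.39 (Nefh), -0.87 to 0.69 (Sncg), -0.0846 to 0.63 (Rbpms), -0.58 to 0.59 (Pou4f1) and -0.23 to 1.33 (Slc17a6). Within EDA-labelled libraries Thy1 ran from -0.53 to 0.0383. Within control-labelled libraries they ran from -0.14 to 0.53 (Nefl), -0.45 to 0.32 (Nefm), -1.17 to 0.26 (Sncg), -0.056 to 0.78 (Rbpms), -0.0947 to 0.0157 (Thy1), -0.34 to 1.03 (Pou4f1) and -2.94 to 0.45 (Slc17a6). Without replicate 2 of the EDA-labelled group at 22 months, Sncg, Slc17a6 and Stmn2 were at 0 in both remaining libraries. No paired analysis was made, as the labels give no pairing of libraries between groups. The replicate numbers used here follow the order in which the libraries of each group are listed. Precision was lowest for Sncg, Slc17a6, Tubb3, Stmn2 and Pou4f1, which had 92 reads or fewer in every library.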
